A study of Mus musculus with 2 samples.

Results

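The genes described here are 44 genes of the mouse that build and load the primary cilium. They were chosen by symbol, from lists of the intraflagellar transport complexes, the BBSome, the transition zone, the ciliary motors and ciliary proteins of Hedgehog signalling, and not by their levels. The choice was made with earlier results of these data known. All 44 were found among the 43346 genes of the files. Total RNA was sequenced from the embryonic facial prominence, the swellings that form the face and jaws, of mixed-sex embryos of strain B6NCrl at 11.5 days. There were 2 libraries in 1 group, made from a pool of 109 embryos for library 1 and 88 embryos for library 2, each from 10 ng of RNA longer than 200 nt, and both with RNA spike-ins added. Nothing was treated or mutated per the labels, and there was no other group, so no comparison of conditions and no test between groups was possible.

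The primary cilium is a single antenna-like projection of the cell surface built on a centriole. Intraflagellar transport (IFT) particles carry proteins along its microtubules, outward with kinesin-2 and the IFT-B complex and back with cytoplasmic dynein-2 and the IFT-A complex. The BBSome moves membrane proteins out of the cilium, and the transition zone at its base acts as a gate. In vertebrates, Hedgehog signals are read at this organelle, and defects of its genes cause human ciliopathies, many of which affect the face.

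Levels are given in TPM, which counts transcripts after correcting for their length, so that levels can be compared between genes. They are the mean ± SD over both libraries (n = 2) unless a library is named. In these pooled, mixed tissues, fewer cells with cilia and less RNA per cell cannot be told apart. The depth was 30849058 expected counts in library 1 and 31600302 in library 2, and the 44 genes received 39841 and 40423 of them. A member had between 101.27 and 2493 counts in a library. Spike-ins took 15.4% and 15.8% of the TPM of library 1 and library 2, which lowers every gene's TPM by that share. Markers of facial mesenchyme were detected for 7 of 7 genes, with a summed level of 773 TPM in library 1 and 798 TPM in library 2. Markers of surface epithelium (5 of 5), neurons (4 of 4), erythroid cells (3 of 3) and endothelium (3 of 3) were detected too, so the levels are those of a mixed dissection.

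Promoters of many cilium genes in animals carry an X-box, the binding motif of the RFX transcription factors. The motif searched here was GTTNCC, a spacer of 1 to 3 bases and GGNAAC. Its arms are reverse complements of each other, so that both strands are covered, and no other motif was searched. The window ran from 250 bases before to 50 bases after the RefSeq start of each gene on GRCm38.p6. Of the 40 members with a promoter in the RefSeq table, 5 held the motif (12.5%), against 0.903% of the 27025 genes of the table. The 5 matches are printed as a sequence feature that these 5 genes share and most members with a promoter lack. They run 5′ to 3′ on the strand of the gene, with the motif in capitals and up to 8 flanking bases in lower case.
Bbs7: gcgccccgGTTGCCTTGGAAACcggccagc
Tctn1: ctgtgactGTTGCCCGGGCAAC
Mks1: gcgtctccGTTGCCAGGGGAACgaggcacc
Ift57: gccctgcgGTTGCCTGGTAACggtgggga
Tctn3: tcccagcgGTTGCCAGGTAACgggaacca

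All printed bases of Bbs7 lay on chr3:36613489-36613518 (minus strand), those of Tctn1 on chr5:122264411-122264432 (minus strand), those of Mks1 on chr11:87853183-87853212 (plus strand), those of Ift57 on chr16:49699226-49699254 (plus strand) and those of Tctn3 on chr19:40612351-40612379 (minus strand). The motif lay before the RefSeq start in Bbs7, Mks1, Ift57 and Tctn3 and after it in Tctn1. The spacer had 2 bases in Bbs7, Tctn1 and Mks1 and 1 base in Ift57 and Tctn3. Of the 5 genes, 3 encode transition zone proteins, and the others are a BBSome subunit and a peripheral IFT-B subunit. With 1 of the 10 fixed bases allowed to differ, 14 of the 40 members matched (35%), against 5.47% of all genes with a promoter. A match describes letters in a window and is not evidence of binding. The 5 genes did not share a level: Ift57 had 30.3 ± 2.39 TPM and Tctn1 2.72 ± 0.148 TPM, with Bbs7, Mks1 and Tctn3 between 8.10 and 12.6 TPM. All 6 RFX factors looked at were detected, led by Rfx7 with 14.4 TPM and Rfx3 with 13.7 TPM, and Rfx2 was lowest with 1.67 TPM.

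All 44 members were detected, that is at 1 TPM or more in both libraries, against 58.5% of the 21474 protein-coding genes. Their median level was 14.2 TPM, between the median of all protein-coding genes (3.45 TPM) and that of the 12572 detected ones (18.0 TPM). Of the 44, 15 lay above the median of detected genes, 5 above their upper quartile of 47.4 TPM and 6 below their lower quartile of 6.12 TPM. Levels ran from 109 ± 5.67 TPM for Ift46 down to 1.35 ± 0.198 TPM for Bbs1, an 81-fold range. Together the members held 0.124% of the TPM of mouse genes in each library.

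**Figure D1:**
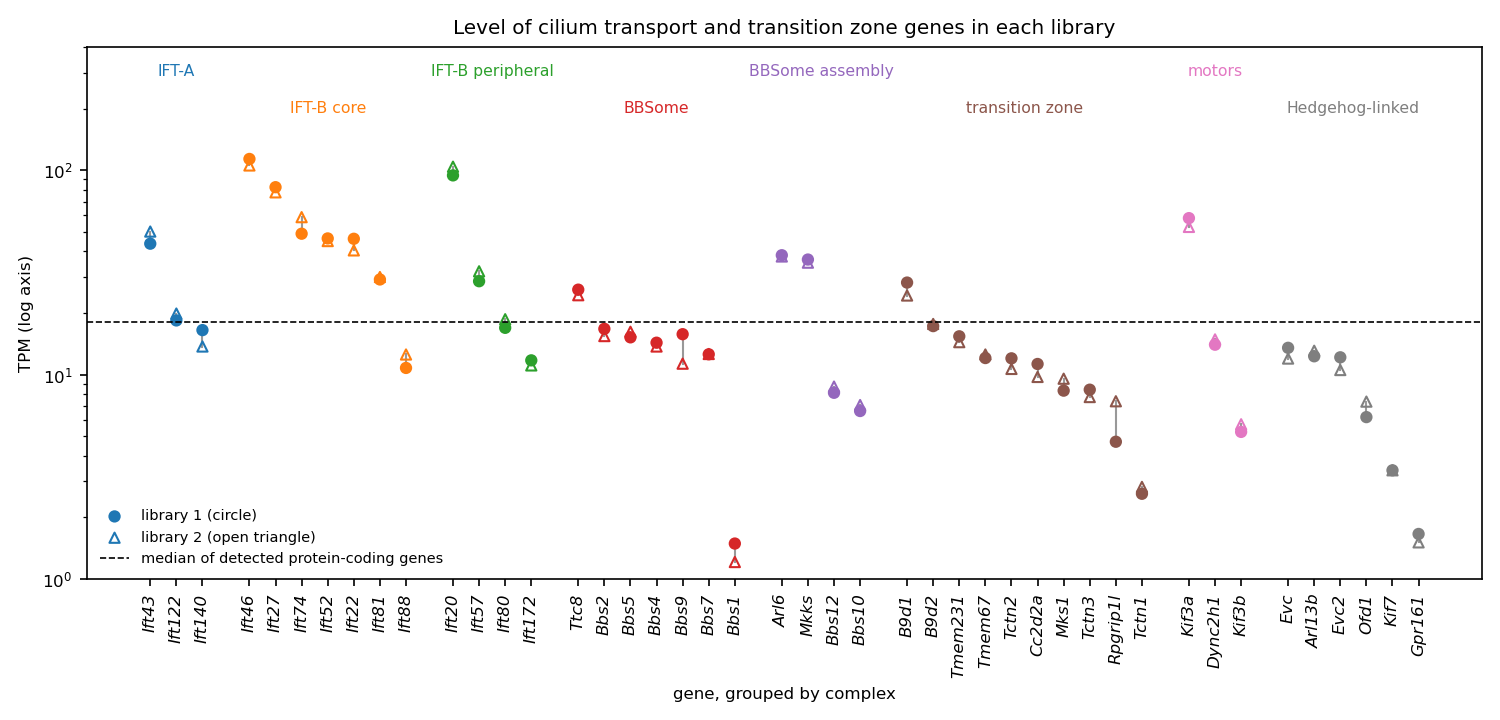
TPM (log axis) of each of the 44 genes in library 1 (filled circle) and library 2 (open triangle), grouped by complex. The dashed line is the median of detected protein-coding genes, 18.0 TPM. Core IFT-B genes other than Ift88 sit above the line, while all 6 Hedgehog-linked genes and all but 1 BBSome gene sit below it.

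Core IFT-B subunits had the highest levels of the 8 groups, with a median of 45.6 TPM over 7 genes and a summed level of 374 ± 5.02 TPM. Ift46 (chr9:44767908-44793447), which in Chlamydomonas is needed to carry outer dynein arms, had 113 TPM in library 1 and 105 TPM in library 2. Ift27 (chr15:78159463-78174107), a small GTPase of the complex that takes part in BBSome exit from the cilium, had 82.5 TPM in library 1 and 77.8 TPM in library 2. Both were higher in library 1, and their ranges were apart from each other and from the next core subunit. Ift74 and Ift81 encode partners that bind tubulin together, at 53.8 ± 7.08 and 29.6 ± 0.573 TPM. The level of Ift74 was 1.82 ± 0.204 times that of Ift81. Ift52, a scaffold subunit, had 45.6 ± 0.955 TPM, and Ift22, a GTPase-like subunit, 43.3 ± 4.0 TPM. The lowest core subunit was Ift88 (chr14:57424062-57517936), whose hypomorphic mutation in mouse is a classic model of polycystic kidneys, with 10.8 TPM in library 1 and 12.5 TPM in library 2. Ift46 stood 9.47 ± 1.5 times above Ift88 per length.

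Peripheral IFT-B subunits showed the same wide spread among partners, from 11.4 to 99.05 TPM over 4 genes. Ift20 (chr11:78536361-78541737), which also works at the Golgi in sorting membrane proteins to the cilium, had 94.2 TPM in library 1 and 104 TPM in library 2. Ift57 followed with 28.6 and 32.0 TPM, higher in library 2 as Ift20 was. Ift80, mutated in human skeletal ciliopathies, had 17.8 ± 1.22 TPM. The largest subunit of the group, Ift172 (chr5:31253277-31291116), had 11.7 TPM in library 1 and 11.1 TPM in library 2. The level of Ift20 was 8.70 ± 0.952 times that of Ift172.

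IFT-A, which drives return transport and the entry of membrane proteins, was covered by 3 genes with a summed level of 81.1 ± 3.60 TPM. The small subunit Ift43 (chr12:86082541-86162459) had 43.7 TPM in library 1 and 50.04 TPM in library 2. The core subunits Ift122 and Ift140 were lower, with 18.4 and 19.9 TPM for Ift122 and 16.5 and 13.7 TPM for Ift140 in library 1 and library 2. Ift43 lay above both in each library, at 2.45 ± 0.102 times Ift122. Ift122 lay above Ift140 in each library.

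BBSome subunits had a median of 14.0 TPM over 7 genes, and 6 of the 7 fell between 12.6 and 25.2 TPM. Ttc8 (chr12:98920574-98983238), the BBS8 subunit, was the highest with 26.0 TPM in library 1 and 24.4 TPM in library 2, followed by Bbs2 with 16.7 and 15.4 TPM. Bbs5 had 15.7 ± 0.70 TPM, Bbs4 14.0 ± 0.424 TPM, Bbs9 13.5 ± 3.15 TPM and Bbs7 12.6 ± 0.0283 TPM. The exception was Bbs1 (chr19:4886878-4906628), the subunit that binds the GTPase ARL6, with 1.49 TPM in library 1 and 1.21 TPM in library 2 from 168 and 138 expected counts. It was the lowest of all 44 members, at the 1.89th percentile of detected protein-coding genes. Bbs1 was quantified as 1 transcript of 5581 nt, and Ttc8 stood 18.8 ± 1.93 times above it.

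Genes that assemble or recruit the BBSome fell into a higher and a lower pair. Arl6 (chr16:59612949-59639391), the GTPase that brings the BBSome to membranes, had 38.3 TPM in library 1 and 37.8 TPM in library 2. Mkks (chr2:136873780-136891389), a chaperonin-like protein also called BBS6, had 36.5 and 35.3 TPM. Its chaperonin-like partners Bbs12 and Bbs10 had 8.44 ± 0.417 and 6.86 ± 0.325 TPM, with Bbs12 at 8.14 and 8.73 TPM and Bbs10 at 6.63 and 7.09 TPM in library 1 and library 2. Mkks was 5.24 ± 0.378 times Bbs10 by gene level. That ratio counts transcripts of Mkks that are not annotated as coding, which are described with the isoforms.

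The 10 transition zone members were low to moderate, with a median of 10.9 TPM and a summed level of 119 ± 2.35 TPM. The 10 other transition zone genes looked at had a higher median, 28.6 TPM, and summed levels of 269 TPM in library 1 and 255 TPM in library 2, so the low median belongs to the members chosen. B9d1 and B9d2 led the members: B9d1 (chr11:61505144-61512931) had 28.2 TPM in library 1 and 24.4 TPM in library 2, and B9d2 had 17.3 and 17.7 TPM. Both encode partners in the same complex with Mks1, which had 8.94 ± 0.849 TPM. Membrane proteins of the zone followed, with Tmem231 at 14.9 ± 0.693 TPM and Tmem67, mutated in Meckel syndrome, at 12.3 ± 0.346 TPM. The tectonics differed among themselves: Tctn2 had 11.3 ± 0.955 TPM, Tctn3 8.10 ± 0.474 TPM and Tctn1 2.61 TPM in library 1 and 2.82 TPM in library 2. Tctn2 was 4.19 ± 0.581 times and Tctn3 2.99 ± 0.338 times Tctn1. Cc2d2a, a C2-domain protein of the zone, had 10.5 ± 1.08 TPM. Rpgrip1l, a scaffold of the gate, had 4.69 TPM in library 1 and 7.40 TPM in library 2, the widest relative spread of the 44 members (coefficient of variation 31.7%).

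Among the motors, the kinesin-2 partners differed widely in level. Kif3a (chr11:53567379-53601967) had 58.2 TPM in library 1 and 52.7 TPM in library 2, and Kif3b (chr2:153291413-153333390), which pairs with it in 1 motor, had 5.24 and 5.71 TPM. The level of Kif3a was 10.2 ± 1.33 times that of Kif3b. With the coding transcripts of Kif3a alone, it was 7.86 times Kif3b in library 1 and 7.29 times in library 2. Kifap3, the third subunit of this motor, had 56.6 ± 4.43 TPM, close to Kif3a. Dync2h1, the heavy chain of cytoplasmic dynein-2, had 14.0 TPM in library 1 and 14.9 TPM in library 2.

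Hedgehog-linked ciliary genes had the lowest median of the groups, 9.06 TPM over 6 genes, and all 6 lay below the median of detected genes. Evc and Arl13b led them without separating: Evc had 13.5 and 11.97 TPM and Arl13b, a GTPase of the ciliary membrane, 12.3 and 13.1 TPM in library 1 and library 2. Evc and Evc2 encode partners at the base of the cilium that promote Hedgehog signalling downstream of Smo. Evc2 had 11.3 ± 1.15 TPM, and the ratio of Evc to Evc2 was 1.13 ± 0.0177, so the partners were nearly balanced by gene level. With coding transcripts alone, Evc had 10.27 TPM in library 1 and 9.74 TPM in library 2. Evc2-201, the coding transcript of Evc2, had 11.1 and 9.36 TPM. The longest coding transcript of Evc, Evc-201, had 6.33 and 7.25 TPM, below Evc2-201 in both libraries. Ofd1, a centriolar protein on chromosome X, had 6.78 ± 0.834 TPM. Kif7 (chr7:79698098-79715720), the kinesin that organises the tip of the cilium for Gli proteins, had 3.40 TPM in each library. Gpr161 (chr1:165295789-165326745), a receptor that holds the pathway off, had 1.66 TPM in library 1 and 1.51 TPM in library 2, and Arl13b was 8.03 ± 0.890 times Gpr161.

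In the order of all 44 by level, 16 of the 43 neighbouring pairs had ranges that did not overlap, and the other 27 pairs could not be ranked from these libraries. The top was well ordered, with Ift46 above Ift20, Ift20 above Ift27 and Ift27 above Kif3a in both libraries. So was the bottom, from Kif3b through Kif7, Tctn1 and Gpr161 to Bbs1. The middle, between about Bbs2 and Cc2d2a, held most of the overlapping pairs.

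Short members were the abundant ones. The 8 members with a mean transcript length under 1200 nt had a median of 45.1 TPM, the 12 from 1200 to under 2500 nt 29.9 TPM, the 15 from 2500 to under 4000 nt 12.6 TPM, and the 9 of 4000 nt or more 6.05 TPM. Detected protein-coding genes of the same classes had medians of 47.9, 24.1, 16.1 and 10.5 TPM. The medians of the members thus lay near or above those of other genes in the shorter classes and below them in the longer ones. Spearman's correlation of TPM with length was -0.704 in library 1 and -0.702 in library 2 over the 44 members, and -0.297 and -0.285 over detected protein-coding genes. These values are descriptions over genes, which share the library and the length that enters TPM.

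**Figure D2:**
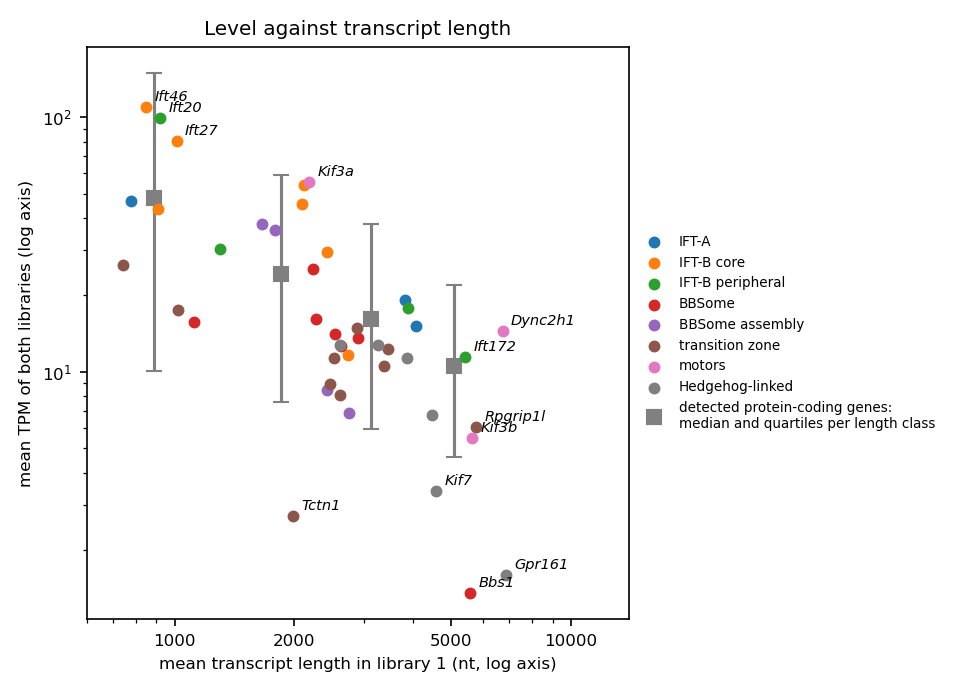
Mean TPM of both libraries against mean transcript length in library 1 (both axes log) for the 44 genes, coloured by group. Grey squares with bars are the median and quartiles of detected protein-coding genes in 4 length classes, and Bbs1, Gpr161, Kif7 and Tctn1 lie below the lower quartile of their class.

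The libraries gave nearly the same levels for most members. The library ratio is library 2 over library 1 of expected counts scaled by TMM, a method that sets the bulk of genes equal, with the exact 95% Clopper-Pearson interval of the count split, which covers counting error only. Of the 44, 28 lay within 1.1-fold (63.6%), against 58.7% of protein-coding genes with at least 200 counts over both libraries, a depth that every member reached. With this scaling, Rpgrip1l and Bbs9 alone differed by the fold set as a threshold, 0.32 on the log2 scale, which is 4.55% of the members, against 9.83% of protein-coding genes with 200 counts and 19.8% of those with 20 counts. The ratio was above 1 in 21 members and below 1 in 23, and the median log2 ratio was -0.01, as against 0.01 for the protein-coding genes with 200 counts. The interval left out 1 in 12 members (27.3%), against 45.8% of those genes, which had a median of 2168 counts where the members had 1466.

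Rpgrip1l (chr8:91217030-91313262) had 545 expected counts in library 1 and 776 in library 2, a ratio of 1.43 (interval 1.28 to 1.59). Bbs9 (chr9:22475715-22888280), a scaffold of the BBSome, went the other way, with 907 and 635 counts and a ratio of 0.701 (interval 0.633 to 0.777). The intervals leave out 1 in both, and 2.92% and 2.94% of protein-coding genes with 200 counts had a larger difference in either direction. Of the other 6 BBSome genes, 5 had a ratio below 1 by these counts, from 0.823 for Bbs1 to 0.986 for Bbs2, and Bbs5 had 1.06. All 6 intervals held 1, and Bbs7 was above 1 by TPM, at 1.003. The other 9 transition zone members had ratios from 0.896 to 1.248, and all 9 intervals held 1.

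After Rpgrip1l, the largest ratios toward library 2 were those of Tctn1 and Ift74. Tctn1 (chr5:122237848-122264460) had 101.27 and 126.21 counts and a ratio of 1.248 (interval 0.953 to 1.64), just under the threshold, and its interval holds 1. Ift74 (chr4:94614491-94693229) had 2028 and 2473 counts and a ratio of 1.22 (interval 1.15 to 1.30). The ratio of its partner Ift81 was 1.07 (interval 0.995 to 1.15), and the ends of both intervals just overlap. Toward library 1, Bbs9 was followed by Bbs1 with 0.823 (interval 0.652 to 1.04) and Evc2 with 0.859 (interval 0.781 to 0.945). Evc2 (chr5:37338499-37425055) had 934 and 801 counts, while Evc (chr5:37289098-37336894) had 697 and 739 counts. The other members whose interval left out 1 were Ofd1, Ift43, Arl13b, Ift80, Ift20 and Dync2h1 toward library 2, with ratios from 1.08 to 1.21, and Ift22 and Ift46 toward library 1, with 0.895 and 0.927.

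For 6 members, Ift122, Bbs7, Mks1, B9d2, Kif7 and Evc, the direction of the ratio changed with the scaling or with TPM in place of counts, so no direction is given for them. Evc shows how: its counts gave a ratio of 1.06 and its TPM a ratio of 0.886, with a mean transcript length of 2616 nt in library 1 and 3057 nt in library 2. The libraries also differed in other tissue. Summed markers of neurons had 373 TPM in library 1 and 307 TPM in library 2, lower in library 2 for 4 of 4 genes, and those of surface epithelium 192 and 166 TPM, lower for 5 of 5. Cryaa, a lens crystallin gene that marks eye tissue, had 118 TPM in library 1 and 12.9 TPM in library 2. None of these markers was at 0. Their part in the ratios of the cilium genes was not tested.

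**Figure D3:**
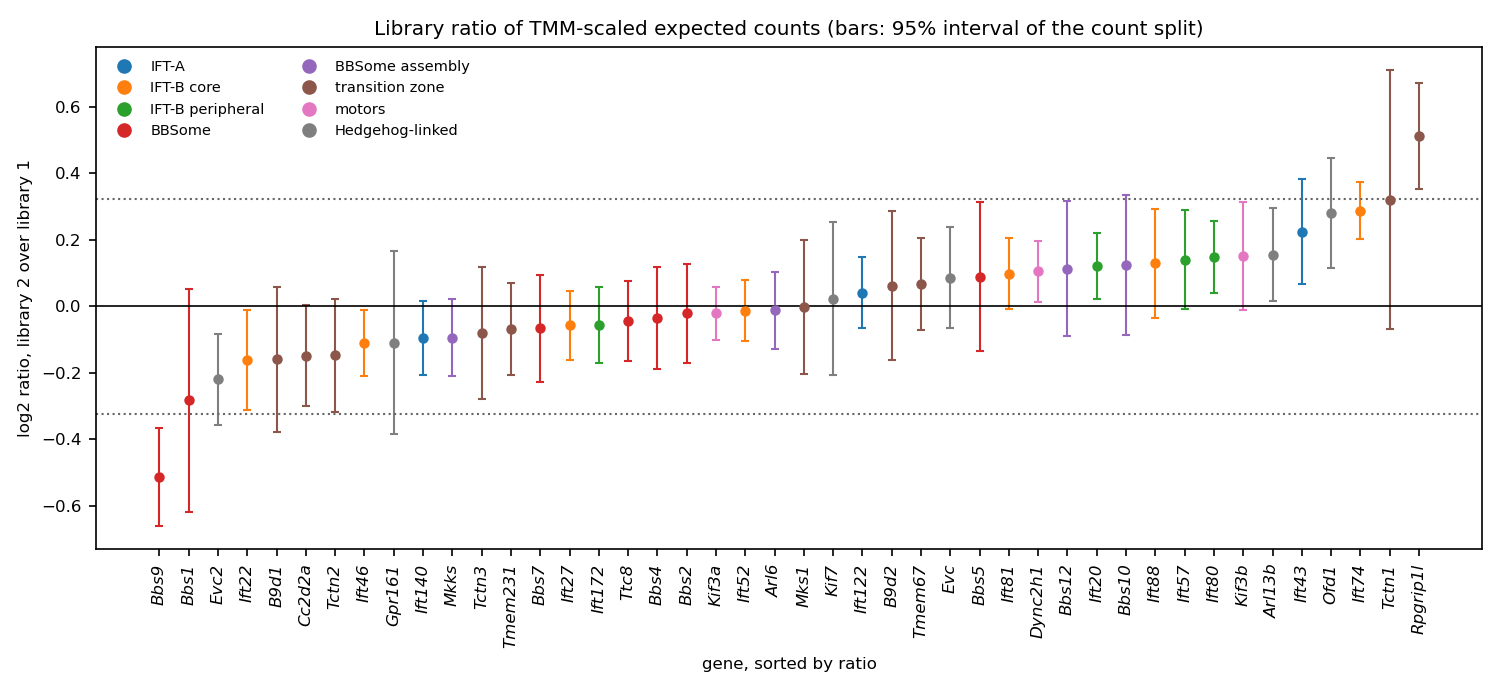
Log2 ratio of library 2 over library 1 for each of the 44 genes, sorted, with bars for the 95% interval of the count split and colours for the groups. Dotted lines mark 0.32 either way, which only Bbs9 at the left and Rpgrip1l at the right pass.

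The files hold 204 transcripts of the 44 genes. There were 11 members with 1 transcript, and 33 with several, with a median of 4 and at most 12 transcripts over all members. IsoPct gives each transcript's part of the TPM of its gene, in percent, and the leading transcript is the one with the largest mean IsoPct. Of the 33 members, 31 had a leading transcript annotated as protein-coding (93.9%), against 91.4% of detected protein-coding genes with several transcripts. The leading transcript was the same in both libraries in 30 (90.9%, against 90.7%) and was the longest coding one in 23 (69.7%, against 57.8%). The median IsoPct of coding transcripts was 90.2% over the 33 members and 94.5% over those genes, and it fell under 75% in 7 members (21.2%, against 23.1%). A transcript's share rests on how reads common to several transcripts were divided. The posterior SD of its count is therefore given for some transcripts where it is large. A share printed without one is not thereby well determined.

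**Figure D4:**
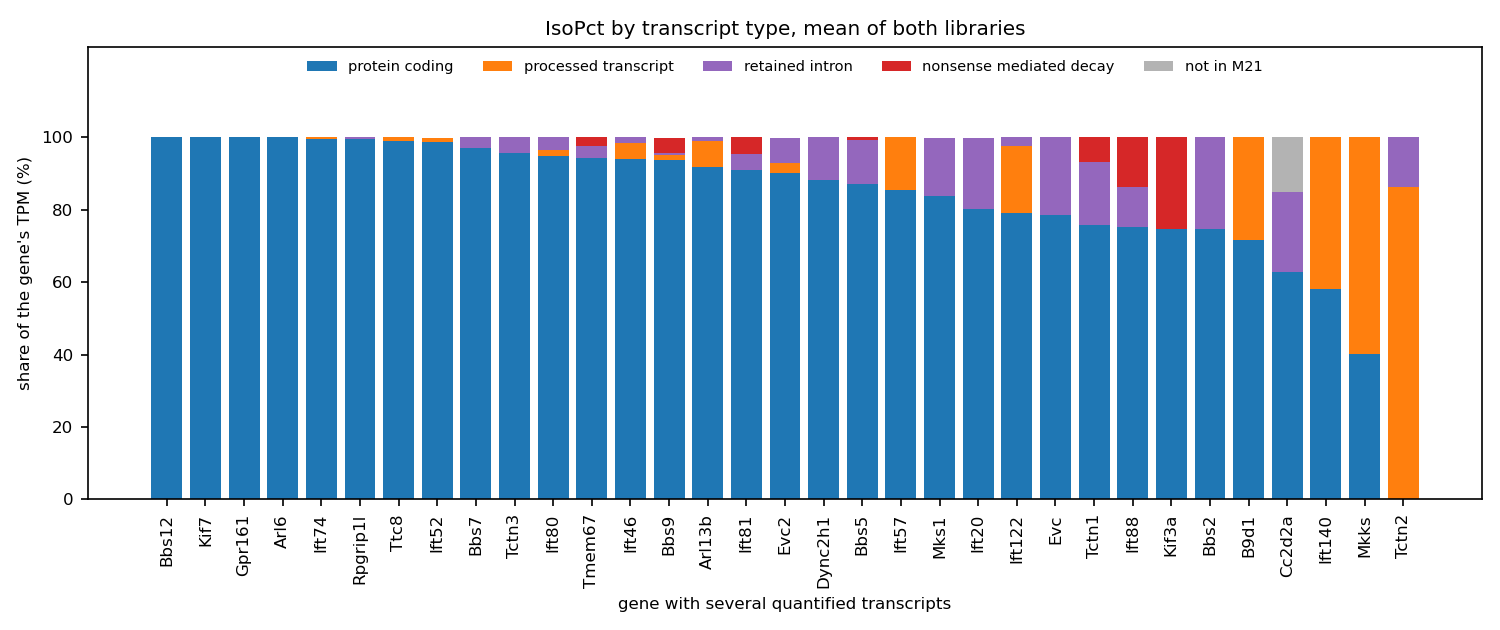
Stacked bars of IsoPct by transcript type (percent of the gene's TPM, mean of both libraries) for the 33 members with several transcripts, sorted by the coding share. The coding share is 0 for Tctn2, 40.3% for Mkks, 58.2% for Ift140 and 62.9% for Cc2d2a.

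Tctn2 and Mkks were the members led by a transcript not annotated as coding. Tctn2-207, a processed transcript of 2733 nt, took 86.3% of the gene's TPM in each library. The annotation used here, GENCODE M21, gives no coding transcript for Tctn2 and types the gene itself as a processed transcript, so its share of 0 is a statement about the annotation. In Mkks, the processed transcript Mkks-203 of 810 nt took 57.8% in library 1 and 61.7% in library 2, and the coding Mkks-202 of 3178 nt took 34.7% and 34.9%. By counts the order turned, with 799 and 790 on Mkks-202 and 308 and 323 on Mkks-203. The coding transcripts of Mkks came to 15.4 TPM in library 1 and 13.5 TPM in library 2. Exons of Mkks share 944 bases (29.3% of its exon bases) on the same strand with AL731706.1, a coding gene of the M21 annotation that is not analysed here.

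Dync2h1 (chr9:6928503-7184446) showed a gap between the share of TPM and the share of reads. The short coding transcript Dync2h1-202 of 2892 nt led with 59.4% in library 1 and 51.9% in library 2. The long Dync2h1-204 of 14264 nt took 24.2% and 28.9%, and the posterior SD reached 21.2% of its count. The 3 coding transcripts over 10 kb together held 4.63 and 4.73 TPM, but 70.1% and 68.3% of the counts. The short form thus held most of the gene's TPM and the long forms most of its counts.

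Kif3a-203, the leading coding transcript of Kif3a, took 41.7% in library 1 and 42.9% in library 2. Kif3a-206 of 770 nt, annotated for nonsense-mediated decay, took 29.2% and 21.1%, and the coding Kif3a-208 took 17.98% and 24.98%, with posterior SDs of up to 20.2% and 30.4% of the count. In Ift140 the full-length coding Ift140-201 of 5489 nt took 53.9% and 59.7%, and the processed transcript Ift140-207 of 2938 nt 35.8% and 38.2%. The posterior SD of these counts was at most 7.65%. Ift46 was split between the coding Ift46-202 of 1317 nt, with 49.0% and 45.6%, and Ift46-209 of 229 nt, with 33.2% and 34.7% from 100.26 and 99.3 counts. A transcript as short as Ift46-209 gains TPM from few reads, and the top rank of Ift46 rests in part on it: Ift46-202 alone had 55.5 and 48.0 TPM.

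The leading transcript differed between the libraries in Ift20, Ift57 and Ift122. Ift20-203 took 42.6% in library 1 and 39.3% in library 2, and Ift20-202 36.5% and 40.3%. In Ift57, Ift57-203 took 38.6% and 34.1% and Ift57-204 27.1% and 36.9%. In Ift122, Ift122-203 took 49.8% and 33.6% and Ift122-201 33.2% and 40.1%, with posterior SDs of up to 19.5% and 23.3% of the count. All of these are coding transcripts of the same gene, so the switch changed no transcript type.

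The largest change of a share between libraries was in Cc2d2a (chr5:43662346-43740972), where a transcript without an entry in GENCODE M21 took 30.3% in library 1 and 0 in library 2. The retained-intron transcript Cc2d2a-204 took 10.1% and 31.6%, with a posterior SD of up to 78.1%. The leading coding transcripts held, with 32.5% and 38.4% for Cc2d2a-202 and 26.1% and 28.7% for Cc2d2a-201. Bbs12-201 took 88.5% and 60.7%, and the rest went to another coding transcript, Bbs12-202, whose posterior SD reached 89.3%. In Mks1 the coding Mks1-201 took 93.5% and 74.3%, and the retained-intron Mks1-203 was listed at 0 in library 1 and had 16.0% in library 2 from 18.81 counts. The posterior SD of Mks1-203 reached 46.4% of its count.

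The isoforms of the members with the widest library ratios were also examined. In Rpgrip1l, nearly all counts of both libraries were on the full-length Rpgrip1l-201 of 7009 nt, with 538.42 counts in library 1 and 760.38 in library 2, or 3.80 and 5.27 TPM. The coding Rpgrip1l-202 of 404 nt took 18.6% and 28.3% of the TPM from 5.44 and 13.31 counts (posterior SD up to 73.0%). The difference in the TPM of the gene was thus larger than that of its full-length form, which had a level 1.39 times higher in library 2. In Bbs9, all of the 3 most abundant coding transcripts were lower in library 2: Bbs9-201 went from 5.55 to 3.42 TPM, Bbs9-210 from 3.13 to 2.03 TPM and Bbs9-211 from 3.38 to 1.34 TPM. Their posterior SDs reached 23.9%, 27.4% and 43.9% of the count, in that order, so the division of reads among them was uncertain. Bbs9-209 went from 0.53 to 1.79 TPM, with a posterior SD of up to 84.2%.

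The members lie on 18 chromosomes, with 8 on chromosome 5. Evc and Evc2 are neighbours there, head to head with starts 1605 bases apart. A coding gene started on the opposite strand within 1 kb of 12 members (27.3%), against 15.9% of detected protein-coding genes. Levels of the neighbours were far apart in some pairs and close in others. Rpgrip1l, at 6.05 TPM, starts 263 bases from Fto, the demethylase gene, at 73.6 TPM, and Ift80, at 17.8 TPM, starts 168 bases from Smc4, a condensin subunit, at 156 TPM. Ift20 and Tnfaip1, with starts 29 bases apart, were closer at 99.05 and 69.2 TPM, as were Ift122 and Mbd4, 99 bases apart, at 19.1 and 15.4 TPM.

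Exons of 10 members overlap another gene on the opposite strand, and since no label or header used here states whether counting was stranded, their levels are uncertain to that extent. The overlap was widest for Tctn1, with 1574 bases (19.0% of its exon bases) shared with Hvcn1, a proton channel gene at 8.18 TPM, and for Kif7, with 877 bases (19.1%) shared with 9330171B17Rik at 0.05 TPM. Overlaps were read from GENCODE M21 exons, while levels were quantified against M4. The leading Tctn1-201 had 2278 nt as quantified and 5717 nt in M21, so the overlap and the level of Tctn1 rest on different models. Tctn1 was also the member with the least certain assignment of reads, with a posterior SD of 4.32% of its count. In 38 of the 44 members the posterior SD of the gene's count was 0.

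Other structural cilium genes, 37 in all, had a median of 13.1 TPM, and 35 of them were detected. The order of the groups was not the same among them: the median was 28.6 TPM for 10 other transition zone genes, above that of the members. It was 33.4 TPM for 2 BBSome-linked genes, Bbip1 with 24.8 TPM and Lztfl1 with 42.0 TPM, above that of the BBSome members. For 7 other IFT-B genes it was 8.38 TPM, below those of the members. Iqcb1, the NPHP5 protein of the transition zone, was the highest with 64.5 ± 0.785 TPM, followed by Kifap3. The 2 genes under 1 TPM were Kif17, a kinesin-2 of certain cilia, with 0.25 TPM in library 1 and 0.23 TPM in library 2, and Ttc30a2, an IFT-B gene with near-identical copies, with 0.23 and 0.52 TPM, whose reads may be split among the copies. All 6 genes of the Hedgehog pathway looked at were detected, with Smo highest at 35.5 TPM and Sufu next at 25.5 TPM. Gli1, a transcriptional target of the pathway, had 7.26 TPM in library 1 and 5.17 TPM in library 2, a ratio of 0.726, and Ptch1, another target, had 17.4 TPM with a ratio of 0.986.

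Genes of motile cilia, which carry dynein arms and radial spokes that primary cilia lack, were mostly low. Of 16 such genes 6 were detected and 9 were below 1 TPM in both libraries; the median of the 16 was 0.50 TPM and their summed level was 34.1 TPM in library 1 and 31.9 TPM in library 2. Foxj1, the master regulator of motile cilia, had 0.33 TPM in library 1 and 0.59 TPM in library 2, and the axonemal dynein gene Dnah5 had 0.02 and 0.03 TPM. Mcidas and Rsph4a had 0.04 TPM in library 1 and were listed at 0 in library 2, and Hydin was listed at 0 in library 1 and had 0.08 TPM in library 2. The sum was led by Ccdc40 with 11.5 TPM and Rsph9 with 9.65 TPM.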

How the data were processed

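Per the notes deposited with the files, the authors quantified each library against GENCODE M4 on mm10; columns are named as in RSEM, and neither tool versions nor strandedness are given in the sources used. The authors gave, per the file headers, expected counts (not normalized), TPM over all entries with spike-ins, and IsoPct in percent; the deposited posterior SD of each count was treated as a score of assignment certainty. GENCODE M21, which has the same assembly, gave symbols, types and positions through identifiers without version. Ratios of expected counts were scaled with edgeR's TMM (version 4.0.16, R 4.3.3) and have exact 95% intervals. Their code was run only on simulated Poisson counts with known library sizes. Such counts meet the assumptions of the interval by design, so that run does not bear on variation between pools or on the estimated scaling. DESeq2 1.42.0 size factors were an alternative. Pools are separate per the labels, and with 2 libraries no p-value was computed. Every member is named; library values are given for the 2 highest and the lowest of each complex, the 3 largest ratios each way and members with an unusual leading transcript; some others were named after their values were seen. The members and lists were chosen with earlier results of these data known. The 200-count minimum and TPM ratios were added after seeing the data.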

Additional observations from a re-analysis of the deposited data

How the results depend on the processing

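No paired analysis was possible because there is 1 group. All 44 members were also detected with posterior mean TPM and at 0.5 TPM, 42 at 2 TPM and 39 at 5 TPM. The median level was 16.8 TPM with TPM over mouse genes only, since spike-ins then leave the total, and 13.7 or 14.8 TPM in 1 library alone. Past 1.5-fold between the libraries there were 0 members by TMM-scaled counts, while the ratio of TPM was 1.58 for Rpgrip1l, and with spike-in totals 3 passed the threshold of 0.32 on the log2 scale, Bbs1 being added at a ratio of 0.787, and 17 intervals left out 1 in place of 12. The median coding share over all 44 members, 94.6%, was 92.8% from posterior mean TPM and 98.0% from expected counts, where short transcripts weigh less, and 94.5% to 95.5% in 1 library alone. The X-box count went from 5 to 14 with 1 mismatch. With 2 libraries and members of as few as 227 counts, small differences were not detectable for the lowest genes.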
